A study of Homo sapiens with 12 samples.

Results

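The 7 sirtuin genes of the human genome, SIRT1 to SIRT7, were followed in total RNA of 3 cell lines. They were found by their symbols in the GENCODE annotation, where they are 7 of the 61533 genes and 103 of the 244939 transcripts that were quantified. All 7 genes had counts in every library and passed the filter on low counts that left 19898 genes for testing. PEO-4 and SKOV-3 are ovarian cystadenocarcinoma lines, both grown from ascitic fluid, and T1074 is an ovarian epithelial line immortalized with SV-40. The labels give wild type as the genotype of each line and name no treatment. Each line was sequenced in 4 libraries from 4 replicate aliquots of harvested cells, in an rRNA-depleted, strand-specific, paired-end design. Each line had its own culture medium and is a single line, so that line, medium and disease state cannot be told apart, and the p-values measure the spread between aliquots, which nothing in the labels places in separate cultures.

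Sirtuins are enzymes that remove acetyl and other acyl groups from lysine residues and consume NAD+ in each reaction, which releases nicotinamide, an inhibitor of the same enzymes. The family is divided by location. SIRT1, SIRT6 and SIRT7 work mainly in the nucleus, SIRT2 is mostly cytoplasmic, and SIRT3, SIRT4 and SIRT5 are imported into mitochondria. In tumours of the ovary and of other organs the same sirtuin has been described both as a promoter and as a suppressor of growth.

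The libraries held between 19780836 and 55739060 expected counts, the estimated number of sequenced fragments per transcript, and the first T1074 library was the shallowest. Levels are given as counts per 1000000 (CPM), scaled with the TMM factors of edgeR. PEO-4 had the epithelial surface markers EPCAM at 158 to 168 CPM and CDH1 at 135 to 157 CPM, and SKOV-3 had both between 21.6 and 29.5 CPM. In T1074 EPCAM reached at most 0.138 CPM and CDH1 at most 0.452 CPM, so that of the 6 epithelial markers only the 4 keratins stood at 1 CPM or more in every library of that line. Summed over 8 fibroblast and mesenchymal markers, PEO-4 libraries held 70.1 to 110.5 CPM, SKOV-3 libraries held 993 to 2479 CPM and T1074 libraries held 814 to 2418 CPM. The list did not move as one, since VIM reached at most 0.146 CPM in PEO-4, against 983 to 2435 CPM in SKOV-3 and 460 to 806 CPM in T1074, whereas THY1 stood at 62.5 to 98 CPM in PEO-4, 1.06 to 1.29 CPM in SKOV-3 and 27.1 to 70.6 CPM in T1074. The part of these differences in any sirtuin result was not tested.

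The family as a whole was expressed at a similar order of magnitude in the 3 lines, but its make-up differed. To compare one gene with another, the expected count of each transcript was divided by its effective length, summed by gene and expressed per 1000000 of the same quantity in all protein-coding genes (TPM over protein-coding genes). On this per-length scale the 7 genes summed to 136 ± 9.52 TPM in PEO-4, 188 ± 13.85 TPM in SKOV-3 and 149 ± 16.3 TPM in T1074 (mean ± SD, n = 4 libraries each). SIRT7 made up 51.4% ± 3.9 of that sum in PEO-4, 21.5% ± 0.462 in SKOV-3 and 20.5% ± 3.21 in T1074. SIRT2 made up 10.0% ± 0.599 in PEO-4, 18.1% ± 1.46 in SKOV-3 and 28.1% ± 3.69 in T1074. SIRT4 was the lowest member of every library, with means of 1.085 TPM in PEO-4, 1.55 TPM in SKOV-3 and 3.38 TPM in T1074.

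**Figure D1:**
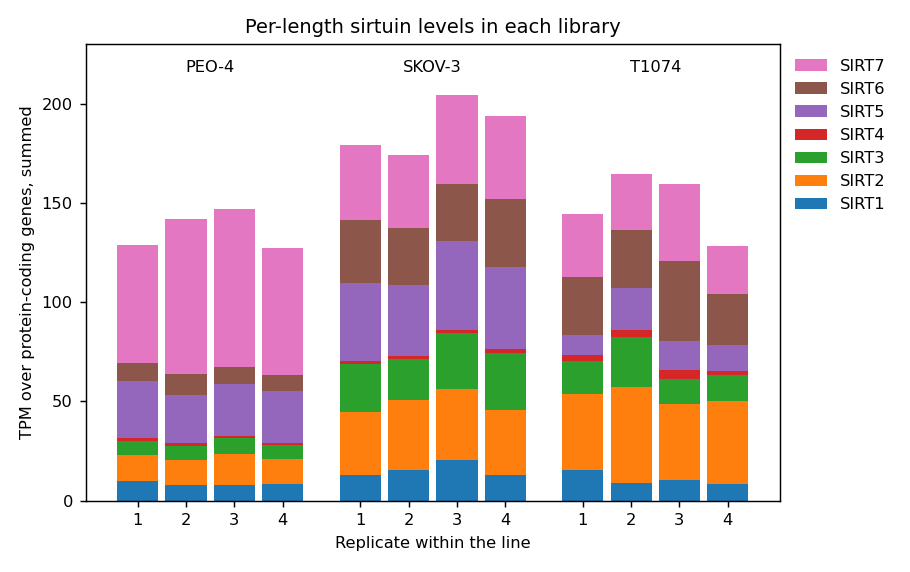
Stacked per-length levels of the 7 sirtuins (TPM over protein-coding genes, y axis) in each of the 4 replicate libraries of PEO-4, SKOV-3 and T1074 (x axis). The SIRT7 segment averages 70.3 TPM in PEO-4, 40.4 TPM in SKOV-3 and 30.6 TPM in T1074, and the SIRT4 segment is a thin band throughout.

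The order of the members by per-length level was therefore not the same in the 3 lines. In PEO-4 it ran SIRT7, SIRT5, SIRT2, SIRT6, SIRT1, SIRT3 and SIRT4, and the 4 libraries of SIRT7 (59.8 to 79.2 TPM) lay above all 4 of SIRT5 (24.1 to 28.8 TPM), which lay above all 4 of SIRT2 (12.8 to 15.5 TPM). Libraries of SIRT6 and SIRT1, and of SIRT1 and SIRT3, overlapped there. In SKOV-3 the order was SIRT7, SIRT5, SIRT2, SIRT6, SIRT3, SIRT1 and SIRT4, and each of the first 4 genes overlapped the one after it. In T1074 SIRT2 stood first at 41.6 ± 4.87 TPM, followed by SIRT6, SIRT7, SIRT3, SIRT5, SIRT1 and SIRT4, and only the step from SIRT1 to SIRT4 was free of overlap between neighbours.

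**Figure D2:**
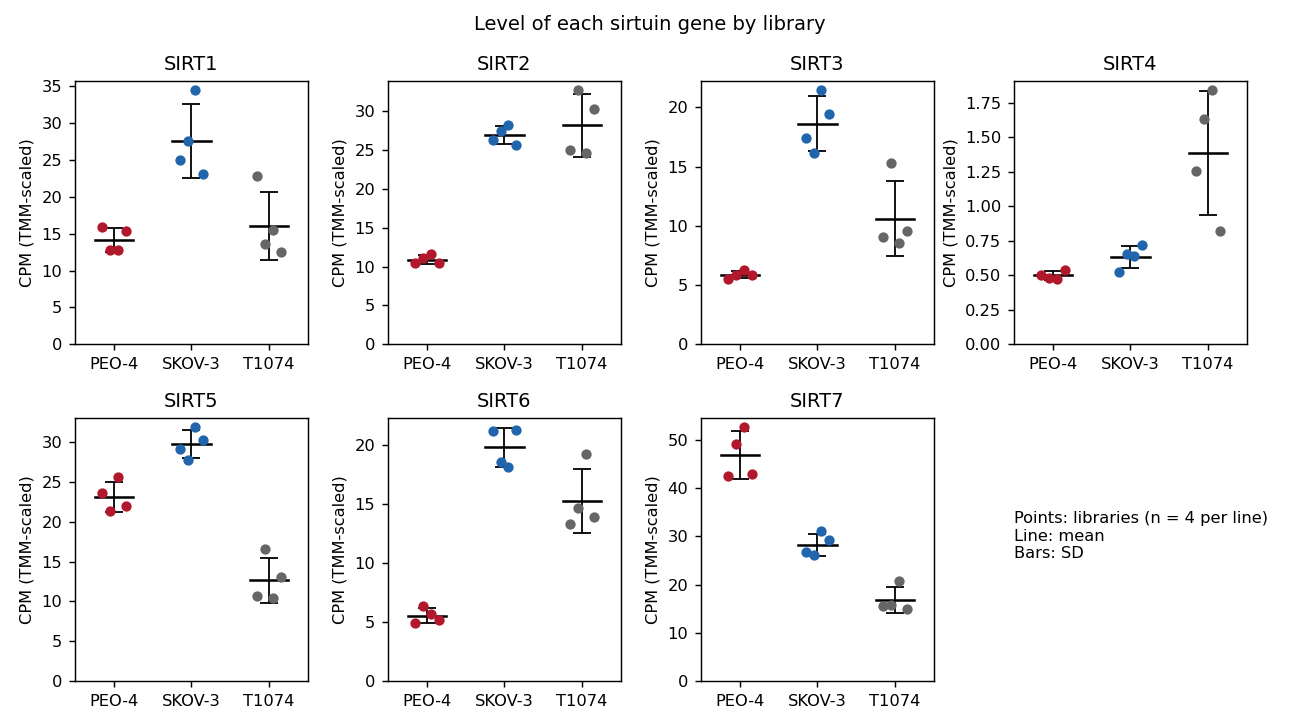
CPM of each sirtuin gene (y axis, starting at 0 and scaled for each gene) in PEO-4, SKOV-3 and T1074 (x axis). Points are the 4 libraries of a line, the horizontal line is their mean and the bars are the SD. SIRT2, SIRT3 and SIRT6 are lowest in PEO-4, SIRT7 is highest in PEO-4 and SIRT4 is highest in T1074.

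All 7 genes differed among the 3 lines (edgeR quasi-likelihood F-test over the 12 libraries, Benjamini-Hochberg adjusted p of 0.000289 or less), as did 90.4% of all tested genes. In PEO-4 against T1074, 2 sirtuins were higher, 4 were lower and SIRT1 was not called, with a median log2 fold change of -0.86. Among all tested genes 36.3% were higher and 37.8% were lower in that comparison, with a median of -0.01. In SKOV-3 against T1074, 5 sirtuins were higher, SIRT4 was lower and SIRT2 was not called, with a median of 0.75. The background there was 33.3% higher and 34.5% lower, with a median of -0.03. In PEO-4 against SKOV-3, only SIRT7 was higher, 5 were lower and SIRT4 was not called, with a median of -0.96 beside a background of 38.5% higher and 36.7% lower and a median of 0.05. Both comparisons with T1074 share its 4 libraries. Most genes were called in each comparison, so the counts describe the members and do not set them apart from other genes.

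**Figure D3:**
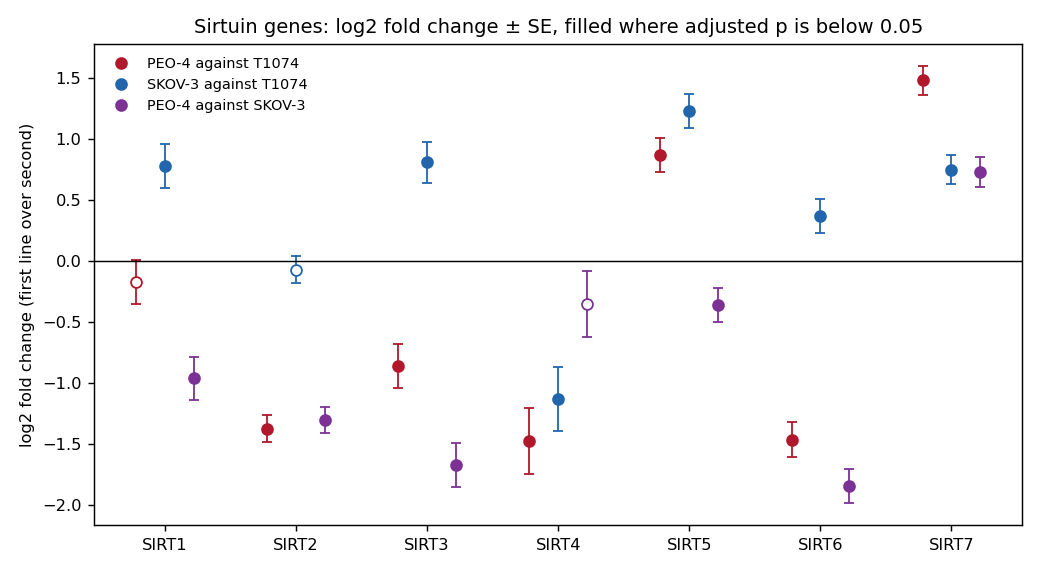
Log2 fold change of each sirtuin gene (y axis, first line over second) for PEO-4 against T1074, SKOV-3 against T1074 and PEO-4 against SKOV-3, with the standard error as bars. Filled points passed an adjusted p of 0.05 and open points did not. SIRT3 and SIRT6 lie below 0 in PEO-4 against T1074 and above 0 in SKOV-3 against T1074.

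SIRT1, the nuclear deacetylase best known for acting on FOXO factors and histones, was higher in SKOV-3 than in the other lines. It had 15.9, 12.8, 12.8 and 15.35 CPM in PEO-4, 25.05, 27.5, 34.6 and 23.05 CPM in SKOV-3, and 22.8, 13.6, 15.5 and 12.6 CPM in T1074. All 4 SKOV-3 libraries exceeded all others, while the PEO-4 and T1074 libraries overlapped and the first T1074 library stood above the other 3. The log2 fold change was 0.78 ± 0.18 in SKOV-3 against T1074 (SE, adjusted p = 0.00154) and -0.96 ± 0.18 in PEO-4 against SKOV-3 (adjusted p = 0.000254). Between PEO-4 and T1074 it was -0.17, with a 95% interval of -0.53 to 0.18 (adjusted p = 0.404), and without the first T1074 library it was 0.04.

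The annotated transcripts of SIRT1 (chromosome 10, 67884656 to 67918390, plus strand, hg38) include a full-length form, SIRT1-201 with 747 codons, and a shorter coding form of 444 codons that SIRT1-202 and SIRT1-203 share. SIRT1-203 begins within an exon of SIRT1-201, and SIRT1-202 begins further along, in an intron of SIRT1-201. Both take their start codon from an exon in that intron, which supplies 33 coding bases in place of the first 942 of SIRT1-201, after which 1299 coding bases to the stop codon are the same in all 3 transcripts. These 33 bases are shown because they are the coding bases that SIRT1-201 lacks, with the start codon in capitals. They do not separate SIRT1-203 from SIRT1-202.
SIRT1-203 first coding exon, chr10:67906255-67906287, plus strand: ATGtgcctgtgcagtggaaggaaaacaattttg

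SIRT1-201 carried a smaller part of SIRT1 in both carcinoma lines. Its share of the TPM of the gene was 57.7%, 69.8%, 64.6% and 57.8% in PEO-4, 68.7%, 56.4%, 40.6% and 69.8% in SKOV-3, and 84.97%, 86.5%, 88.5% and 74.85% in T1074. Every T1074 library lay above every library of the other lines. SIRT1-203 took 12.5%, 0%, 19.0% and 34.0% in PEO-4, 24.5%, 34.6%, 45.1% and 14.2% in SKOV-3, and 5.78%, 6.84%, 0% and 0% in T1074. An expected count of 0 allows up to 0.616% of the SIRT1 TPM of the second PEO-4 library and up to 0.626% of that of the fourth T1074 library, and such limits cover counting error only, not the division of reads between similar transcripts. SIRT1-202, which has the same coding bases, took 13.7%, 16.85%, 0% and 6.08% in PEO-4, 5.67%, 5.33%, 5.50% and 8.27% in SKOV-3, and 0%, 0%, 9.13% and 8.88% in T1074. In each library where SIRT1-203 was at 0, SIRT1-202 was above 0, and neither usage test called SIRT1-202 in any comparison. Limma on the arcsine square roots of the shares called SIRT1-201 lower in PEO-4 (adjusted p = 0.0253) and in SKOV-3 (adjusted p = 0.017) than in T1074, and SIRT1-203 higher in SKOV-3 than in T1074 (adjusted p = 0.0421). The test fixed in the design for transcript usage, diffSpliceDGE of edgeR, called none of these (adjusted p = 0.985, 0.89 and 0.0628), so SIRT1 usage rests on 1 of 2 tests. As a level, SIRT1-203 had a log2 fold change of 4.16 ± 1.44 in SKOV-3 against T1074 (adjusted p = 0.041), and this call was lost without any 1 of 8 libraries (PEO-4 replicates 1 and 3, SKOV-3 replicates 1, 2 and 3, and T1074 replicates 2, 3 and 4; adjusted p up to 0.0974). The lower share of SIRT1-201 in PEO-4 was lost without PEO-4 replicate 1 or 4 or T1074 replicate 1, 2 or 3 (adjusted p up to 0.0661), and the higher share of SIRT1-203 in SKOV-3 was lost without any 1 of 8 libraries as well (PEO-4 replicates 1 and 3, SKOV-3 replicates 1, 2 and 3, and T1074 replicates 1, 3 and 4; adjusted p up to 0.106).

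SIRT6, a chromatin-bound enzyme that acts on histone H3 and takes part in DNA repair, telomere maintenance and the restraint of glycolytic genes, was lowest in PEO-4. It had 4.92, 6.39, 5.72 and 5.17 CPM in PEO-4, 21.2, 18.6, 18.15 and 21.3 CPM in SKOV-3, and 13.3, 14.6, 19.3 and 13.95 CPM in T1074. No PEO-4 library came near either of the other lines. The log2 fold change was -1.46 ± 0.14 in PEO-4 against T1074 (adjusted p = 3.11e-07) and -1.84 ± 0.14 in PEO-4 against SKOV-3 (adjusted p = 2.96e-08), the steepest difference of any sirtuin in the 3 comparisons. SKOV-3 was called higher than T1074 by 0.37 ± 0.14 (adjusted p = 0.0251), but these libraries overlapped and the call was lost in 5 of the 12 fits that left out 1 library (SKOV-3 replicates 1 and 4 and T1074 replicates 1, 2 and 4; adjusted p up to 0.0652). It was also lost under scaling by library size only (0.17, adjusted p = 0.358) and with counts from length-scaled TPM (0.25, adjusted p = 0.105). SIRT6-202, with 355 codons, carried 61.7% ± 18.3 of the gene in PEO-4, 72.5% ± 3.91 in SKOV-3 and 65.1% ± 1.88 in T1074, and neither usage test called it in any comparison.

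SIRT6 (chromosome 19, 4174109 to 4182566, minus strand) starts 123 bases from ANKRD24, which is transcribed the other way. ANKRD24 averaged 0.117 CPM in PEO-4, 0.202 CPM in SKOV-3 and 0.201 CPM in T1074 and did not pass the count filter. Of the genes on either side of the stretch between the 2 starts, only SIRT6 passed it. The stretch is printed on the minus strand, towards SIRT6, with capitals for matches in either orientation to the GC box (GGGCGG), the ETS core (CCGGAA) or the NRF1 motif.
SIRT6 to ANKRD24, chr19:4182567-4182688, minus strand: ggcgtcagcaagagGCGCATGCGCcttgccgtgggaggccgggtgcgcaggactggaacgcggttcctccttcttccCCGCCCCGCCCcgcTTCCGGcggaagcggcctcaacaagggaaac
Of windows of this length before the 35116 starts in the RefSeq promoter table (GRCh38.p14), 34.2% held the GC box, 9.85% held the ETS core and 0.812% held the NRF1 motif. The CCAAT box (CCAAT), the E box (CACGTG) and the TATA box (TATAAA) were searched as well and were not in these letters. A match is a description of the letters only.

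SIRT7, the nucleolar member, which binds chromatin and the RNA polymerase machinery of ribosomal DNA, was highest in PEO-4. It had 42.5, 49.3, 52.7 and 42.9 CPM in PEO-4, 26.7, 26.15, 31.1 and 29.2 CPM in SKOV-3, and 15.6, 15.85, 20.7 and 14.97 CPM in T1074. The 3 lines did not overlap. SIRT7 had a log2 fold change of 1.48 ± 0.12 in PEO-4 against T1074 (adjusted p = 7.49e-08), 0.75 ± 0.12 in SKOV-3 against T1074 (adjusted p = 8.18e-05) and 0.73 ± 0.12 in PEO-4 against SKOV-3 (adjusted p = 7.85e-05). SIRT7-201, the coding transcript with 400 codons, held 54.1% ± 4.38 of the gene in PEO-4, 65.4% ± 2.73 in SKOV-3 and 52.8% ± 8.8 in T1074. Transcripts annotated with a retained intron held 45.5%, 34.5% and 46.7% on average in PEO-4, SKOV-3 and T1074, a larger part than in any other sirtuin. Of its 21 annotated transcripts 18 are of that kind, so that this share also reflects how the gene is annotated. SIRT7 (chromosome 17, 81911939 to 81921323, minus strand) overlaps MAFG on the same strand, but only through SIRT7-210, which had an expected count of 0 in all 12 libraries. MAFG, a small MAF transcription factor, was lower in PEO-4 than in T1074 (log2 fold change -0.55, adjusted p = 0.000528) and than in SKOV-3 (-0.88, adjusted p = 6.64e-06), where SIRT7 was higher, and was higher in SKOV-3 than in T1074 (0.33, adjusted p = 0.0178), as SIRT7 was. The promoter table used here has no entry for SIRT7.

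SIRT2, a mainly cytoplasmic deacetylase whose best known substrate is alpha-tubulin, was lower in PEO-4. It had 10.4, 11.1, 11.65 and 10.4 CPM in PEO-4, 26.3, 27.4, 28.2 and 25.7 CPM in SKOV-3, and 24.9, 32.8, 24.7 and 30.3 CPM in T1074. The PEO-4 libraries were close together and well below the others, which overlapped. Its log2 fold change was -1.37 ± 0.11 in PEO-4 against T1074 (adjusted p = 5.29e-08) and -1.30 ± 0.11 in PEO-4 against SKOV-3 (adjusted p = 8.66e-08). SKOV-3 against T1074 gave -0.07, with a 95% interval of -0.28 to 0.15 (adjusted p = 0.598).

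The coding transcripts of SIRT2 (chromosome 19, 38878555 to 38899862, minus strand) that hold most of the gene are SIRT2-201, with 389 codons, and SIRT2-204, with 352 codons. SIRT2-204 starts at a later ATG in the same frame and lacks the first 37 codons of SIRT2-201. The coding bases from the start codon of SIRT2-201 to that of SIRT2-204 are shown because this is the stretch by which the proteins differ. They come from 4 exons, and capitals mark the start codons.
SIRT2-201 coding start, chr19:38893526-38899521, minus strand: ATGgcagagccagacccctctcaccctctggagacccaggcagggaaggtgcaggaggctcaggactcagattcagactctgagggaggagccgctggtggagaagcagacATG

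The lower SIRT2 level of PEO-4 was larger in the long form. SIRT2-201 had a log2 fold change of -2.25 ± 0.32 in PEO-4 against T1074 (adjusted p = 0.000151) and -2.40 ± 0.32 in PEO-4 against SKOV-3 (adjusted p = 9.19e-05). SIRT2-204 had -0.95 ± 0.14 (adjusted p = 0.000187) and -0.81 ± 0.14 (adjusted p = 0.000569) in the same comparisons. SIRT2-201 took 27.4%, 16.0%, 26.4% and 16.0% of the gene in PEO-4, 43.9%, 42.8%, 47.0% and 40.6% in SKOV-3, and 39.5%, 53.2%, 29.0% and 40.1% in T1074. All PEO-4 libraries were below all others. SIRT2-204 took 54.1% ± 11.8 in PEO-4, 35.9% ± 4.4 in SKOV-3 and 42.4% ± 7.44 in T1074. By limma on shares SIRT2-201 was lower in PEO-4 than in T1074 (adjusted p = 0.0173) and than in SKOV-3 (adjusted p = 0.0066). By diffSpliceDGE it was not called (adjusted p = 0.141 and 0.0501), and the call by shares against T1074 was lost without PEO-4 replicate 4 (adjusted p = 0.0501).

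SIRT3, the main deacetylase of the mitochondrial matrix, was lowest in PEO-4 and highest in SKOV-3. It had 5.53, 5.81, 6.28 and 5.84 CPM in PEO-4, 17.45, 16.2, 21.4 and 19.5 CPM in SKOV-3, and 9.03, 15.3, 8.57 and 9.55 CPM in T1074. The 3 lines did not overlap, and the second T1074 library stood well above the other 3. The log2 fold change was -0.86 ± 0.18 in PEO-4 against T1074 (adjusted p = 0.000464), 0.81 ± 0.17 in SKOV-3 against T1074 (adjusted p = 0.000769) and -1.67 ± 0.18 in PEO-4 against SKOV-3 (adjusted p = 8.22e-07). Counted over protein-coding transcripts alone, the difference between PEO-4 and T1074 was -0.44 and was not called (adjusted p = 0.0682). SIRT3-201, with 399 codons, held 32.5% ± 4.63 of the gene in PEO-4, 25.6% ± 3.68 in SKOV-3 and 25.6% ± 5.89 in T1074. SIRT3-214, annotated as a target of nonsense-mediated decay (NMD, the degradation of transcripts with an early stop codon), held 27.8% ± 12.5 in PEO-4, 28.7% ± 7.21 in SKOV-3 and 39.9% ± 2.83 in T1074. Neither usage test called a SIRT3 transcript in any comparison.

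SIRT3 (chromosome 11, 215030 to 236931, minus strand) starts 35 bases from PSMD13, a proteasome subunit gene transcribed the other way, and the pair moved in the same direction in all 3 comparisons. PSMD13 averaged 29.8 CPM in PEO-4, 106 CPM in SKOV-3 and 51.8 CPM in T1074. Its log2 fold change was -0.80 in PEO-4 against T1074 (adjusted p = 1.33e-05), 1.04 in SKOV-3 against T1074 (adjusted p = 1.21e-06) and -1.84 in PEO-4 against SKOV-3 (adjusted p = 2.91e-09). These directions were not particular to the pair. Within 500 kb, HRAS (-1.36, 0.57 and -1.92 in the same order), PTDSS2 (-1.06, 0.40 and -1.46) and DEAF1 (-1.06, 0.30 and -1.35) were called likewise. Other genes there were not, such as PKP3 (4.90, 3.34 and 1.56). The bases between both starts are shown because both genes are transcribed away from them. None of the 6 motifs named for SIRT6 was found in them, and 88.2% of the letters were G or C. The stretch has only 34 bases, and 0.322% (NRF1) to 12.2% (GC box) of promoter windows of this length held each motif. The 250 bases before the SIRT3 start in the promoter table held the ETS core, as did 14.5% of all such windows.
SIRT3 to PSMD13, chr11:236932-236965, minus strand: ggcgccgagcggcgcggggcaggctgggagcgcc

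At its other end SIRT3 overlaps RIC8A on the opposite strand, and SIRT2 overlaps the start of NFKBIB in the same way, with starts 162 bases apart. The library kit kept strand, but the strand setting of the counting is not given in the sources used here, so reads from the overlaps may have been shared. NFKBIB, an inhibitor of NF-kappa-B, averaged 6.62 CPM in PEO-4, 18.1 CPM in SKOV-3 and 20.9 CPM in T1074. It was lower in PEO-4 than in T1074 (log2 fold change -1.66, adjusted p = 2.04e-06) and than in SKOV-3 (-1.45, adjusted p = 7.58e-06), as SIRT2 was. RIC8A was lower in PEO-4 than in T1074 (-1.41, adjusted p = 5.52e-08) and than in SKOV-3 (-1.18, adjusted p = 3.36e-07), as SIRT3 was. It was not called in SKOV-3 against T1074 (-0.23, adjusted p = 0.0889), where SIRT3 was higher.

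SIRT4, a mitochondrial sirtuin with little deacetylase activity that acts on glutamate dehydrogenase and on other acyl groups, was lower in both carcinoma lines. It had 0.50, 0.48, 0.47 and 0.54 CPM in PEO-4, 0.53, 0.65, 0.64 and 0.72 CPM in SKOV-3, and 1.25, 1.63, 1.84 and 0.82 CPM in T1074. Every T1074 library was above every other library. Few reads stand behind these levels, with 17 to 25 expected counts per PEO-4 library, 27 to 35.01 per SKOV-3 library and 25 to 75 per T1074 library. The log2 fold change was -1.47 ± 0.27 in PEO-4 against T1074 (adjusted p = 0.000168) and -1.13 ± 0.26 in SKOV-3 against T1074 (adjusted p = 0.00137). PEO-4 against SKOV-3 gave -0.35, with a 95% interval of -0.88 to 0.19 (adjusted p = 0.261). SIRT4-201, with 314 codons, was the only one of its 3 transcripts that could be tested, and it held 82.9% ± 15.6 of the gene in PEO-4, 69.1% ± 21.5 in SKOV-3 and 94.1% ± 11.7 in T1074. SIRT4-202 and SIRT4-203 were at 0 in 6 or more of the 12 libraries, and the shares were too unsteady at this depth to be compared.

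SIRT5, the mitochondrial enzyme that removes succinyl, malonyl and glutaryl groups from lysine, was higher in both carcinoma lines. It had 23.6, 21.4, 25.6 and 21.99 CPM in PEO-4, 29.1, 27.8, 32.0 and 30.2 CPM in SKOV-3, and 10.7, 16.5, 10.4 and 13.03 CPM in T1074. The 3 lines did not overlap. SIRT5 had a log2 fold change of 0.87 ± 0.14 in PEO-4 against T1074 (adjusted p = 5.56e-05) and 1.23 ± 0.14 in SKOV-3 against T1074 (adjusted p = 2.31e-06). PEO-4 was called lower than SKOV-3 by a small step (-0.36 ± 0.14, adjusted p = 0.0259), and this call was lost in 4 of the 12 fits that left out 1 library (PEO-4 replicates 1, 2 and 4 and SKOV-3 replicate 3; adjusted p up to 0.102). It was also lost under scaling by library size only (-0.32, adjusted p = 0.113), under scaling over protein-coding genes only (-0.22, adjusted p = 0.136) and with counts of protein-coding transcripts only (-0.32, adjusted p = 0.0793).

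On the per-length scale, a smaller part of the SIRT5 RNA of the carcinoma lines came from coding transcripts. The coding share, the part of the TPM of a gene that comes from transcripts annotated as protein-coding, was 60.0%, 67.15%, 71.7% and 62.8% for SIRT5 in PEO-4, 60.1%, 68.85%, 61.6% and 64.6% in SKOV-3, and 84.0%, 78.7%, 71.0% and 80.3% in T1074. The third PEO-4 library overlapped the third T1074 library, and all SKOV-3 libraries were below T1074. The difference was -13.05 points in PEO-4 against T1074 (limma on arcsine square roots, adjusted p = 0.0292) and -14.7 points in SKOV-3 against T1074 (adjusted p = 0.0227). SIRT5 was the only sirtuin called for its coding share, in comparisons where 14.4% and 11.2% of the 11003 tested genes were called, and limma called 0 sirtuins in PEO-4 against SKOV-3 (1 at an unadjusted p under 0.05), where 20.7% of genes were called. Both calls were fragile. In PEO-4 against T1074 the call was lost without any 1 of PEO-4 replicates 1, 2 and 4 or T1074 replicates 1, 2 and 4 (adjusted p up to 0.0784). The call for SKOV-3 against T1074 was lost without SKOV-3 replicate 1 or 3 or T1074 replicate 1 (adjusted p up to 0.0631), and on shares of expected counts rather than of TPM (adjusted p = 0.903). With NMD-annotated transcripts counted as coding, the sign turned in both comparisons and neither was called (adjusted p = 0.433 for PEO-4 and 0.183 for SKOV-3).

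Most of the remainder was NMD-annotated RNA, which held 34.0% of the SIRT5 TPM in PEO-4, 36.0% in SKOV-3 and 19.3% in T1074. SIRT5-206, the only such form with at least 10% of the gene in a line, is a 571-base transcript that gains a stop codon after 41 codons, against 310 codons in SIRT5-211, the most abundant coding form. Its reading frame is shown because the early stop is what sets it apart, with capitals for the 11 bases, stop codon included, that the coding sequence of SIRT5-211 lacks.
SIRT5-206 reading frame, chr6:13584111-13584997, plus strand: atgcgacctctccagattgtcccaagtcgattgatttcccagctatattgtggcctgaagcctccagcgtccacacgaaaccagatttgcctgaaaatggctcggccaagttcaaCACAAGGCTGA

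SIRT5-206 took 26.4%, 18.75%, 10.7% and 24.1% of SIRT5 in PEO-4, 34.2%, 25.9%, 34.45% and 30.9% in SKOV-3, and 0%, 17.2%, 17.5% and 6.72% in T1074. SKOV-3 lay above every T1074 library, and PEO-4 overlapped T1074. The expected count of 0 in the first T1074 library allows up to 9.26% of its SIRT5 TPM, above the 6.72% of the fourth, so that its place among the T1074 libraries is not known at this depth. SIRT5-206 averaged 0.974 CPM in PEO-4, 2.43 CPM in SKOV-3 and 0.257 CPM in T1074. SIRT5 as a whole averaged 23.1, 29.8 and 12.7 CPM in these lines. Division by effective length gives a transcript this short a larger share of TPM than of counts. As a level, SIRT5-206 was higher in SKOV-3 than in T1074 (log2 fold change 3.17 ± 0.72, adjusted p = 0.00476) and was not called in PEO-4 (1.85 ± 0.69, adjusted p = 0.0502). As a share it was called by limma in SKOV-3 (adjusted p = 0.0355) and not by diffSpliceDGE (adjusted p = 0.504), and the call by shares was lost without any 1 of the 4 SKOV-3 libraries or T1074 replicate 4 (adjusted p up to 0.0826). SIRT5-203, a coding form of 299 codons, held 4.92% ± 3.5 in PEO-4, 2.11% ± 0.609 in SKOV-3 and 12.9% ± 2.51 in T1074, and limma called it lower in PEO-4 (adjusted p = 0.0489) and in SKOV-3 (adjusted p = 0.0208), again without diffSpliceDGE (adjusted p = 0.8 and 0.33). Its call in PEO-4 was lost without any 1 of 9 libraries (adjusted p up to 0.0988) and that in SKOV-3 without SKOV-3 replicate 1 or 3 (adjusted p up to 0.056). SIRT5-211 held 44.5% ± 0.274 in PEO-4, 49.9% ± 3.56 in SKOV-3 and 42.3% ± 4.04 in T1074, and neither test called its share.

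**Figure D4:**
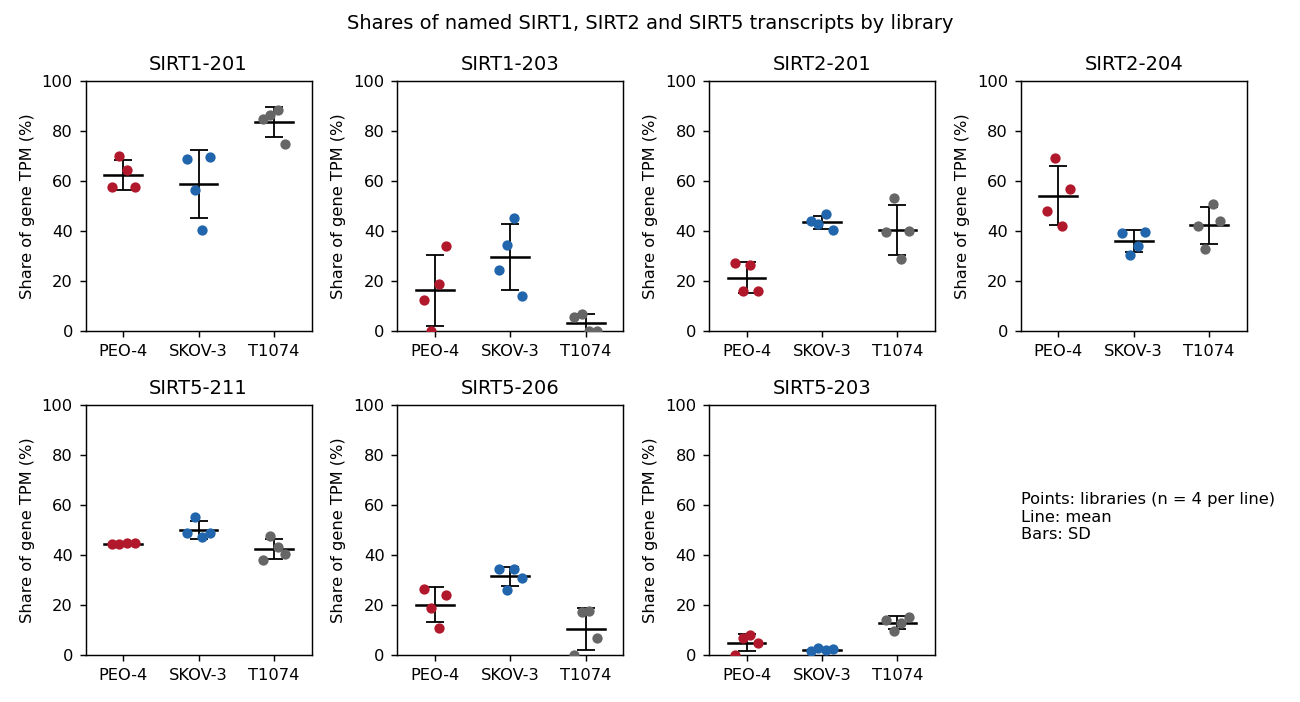
Share of the TPM of its gene (y axis, percent) that each of 7 named transcripts of SIRT1, SIRT2 and SIRT5 held in PEO-4, SKOV-3 and T1074 (x axis). Points are the 4 libraries of a line, the horizontal line is their mean and the bars are the SD. SIRT1-201 averages 62.5% in PEO-4, 58.9% in SKOV-3 and 83.7% in T1074, and SIRT2-201 averages 21.4% in PEO-4, 43.6% in SKOV-3 and 40.4% in T1074.

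Over the whole family, 54 of the 103 sirtuin transcripts passed the filter for testing, and 17 held at least 10% of their gene in at least 1 line. As levels, 10 sirtuin transcripts were higher and 7 were lower in PEO-4 against T1074, where 21.6% of the 76043 tested transcripts were higher and 20.3% were lower. In SKOV-3 against T1074, 9 were higher and 1 was lower, beside 18.9% and 17.3%. In PEO-4 against SKOV-3, 6 were higher and 14 were lower, beside 22.9% and 22.1%. For usage, 53 could be tested. In PEO-4 against T1074, diffSpliceDGE called 3 and limma on shares called 6, beside 5.44% and 17.9% of all transcripts tested by each. For SKOV-3 against T1074 diffSpliceDGE called 0 (5 at an unadjusted p under 0.05) and limma called 7, beside 4.81% and 14.3%. In PEO-4 against SKOV-3 they called 1 and 11, beside 7.39% and 23.3%.

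Both usage tests called a sirtuin transcript in 2 instances, and these were picked out after their values were seen. SIRT5-209, an NMD-annotated form, held 0.896%, 1.22%, 1.70% and 1.00% of SIRT5 in PEO-4 and 0.110%, 0.216%, 0.414% and 0.123% in SKOV-3, and had an expected count of 0 in all 4 T1074 libraries, which allows up to 0.772% of the SIRT5 TPM in the first, the shallowest, and less in the others. Both tests called its usage in PEO-4 against T1074 (diffSpliceDGE adjusted p = 0.0267, limma adjusted p = 4.20e-05). SIRT5-213, a coding form, was at 0 in all 4 PEO-4 libraries, which allows up to 0.165% of the SIRT5 TPM in any one of them, and held 3.03%, 2.72%, 3.98% and 5.11% in SKOV-3 and 0%, 3.79%, 0% and 5.08% in T1074. Both tests called its usage in PEO-4 against SKOV-3 (diffSpliceDGE adjusted p = 3.32e-05, limma adjusted p = 0.0151). Both are minor forms of their gene. Each passed the count filter only through lines where it was above 0, and the line at 0 shows no spread. The calls are therefore given as a description.

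Sirtuins depend on NAD+, and genes that make it differed among the lines. The counts in this and the next lists stand beside the shares of all tested genes, which were 36.3% higher and 37.8% lower in PEO-4 against T1074 (median log2 fold change -0.01), 33.3% and 34.5% in SKOV-3 against T1074 (median -0.03), and 38.5% and 36.7% in PEO-4 against SKOV-3 (median 0.05). The list of NAD+ synthesis also held NADK, NADK2 and SLC25A51, which use or carry NAD+ rather than make it. Of its 16 tested genes, 6 were higher and 9 lower in PEO-4 against T1074 (median log2 fold change -0.52), 10 were higher and 1 lower in SKOV-3 against T1074 (median 0.60), and 5 were higher and 9 lower in PEO-4 against SKOV-3 (median -0.50). Thus 62.5% of the list was higher in SKOV-3 than in T1074 and 56.2% was lower in PEO-4 than in T1074, both above the shares of all genes, whereas the 37.5% that was higher in PEO-4 than in T1074 lay near them. NAMPT, the rate-limiting enzyme of NAD+ salvage from nicotinamide, averaged 133 ± 17.7 CPM in PEO-4, 137 ± 19.15 CPM in SKOV-3 and 337 ± 92.1 CPM in T1074. It was lower in PEO-4 (log2 fold change -1.35, adjusted p = 1.72e-05) and in SKOV-3 (-1.30, adjusted p = 2.92e-05) than in T1074. NAPRT, which starts from nicotinic acid instead, averaged 107 ± 27.0 CPM in PEO-4, 78.8 ± 8.51 CPM in SKOV-3 and 2.56 ± 0.833 CPM in T1074 (log2 fold change 5.43, adjusted p = 9.43e-11, and 4.98, adjusted p = 2.76e-10). QPRT, the entry from quinolinic acid, was also higher in both carcinoma lines, at 52.95 ± 1.75 CPM in PEO-4, 112 ± 21.1 CPM in SKOV-3 and 11.1 ± 5.97 CPM in T1074. Among the enzymes that join the nucleotide to ATP in a late step, NMNAT2 reached 34.5 ± 2.85 CPM in PEO-4, 2.36 ± 0.65 CPM in SKOV-3 and 1.695 ± 0.475 CPM in T1074. NMNAT3 averaged 7.32 ± 0.897 CPM in PEO-4, 0.863 ± 0.221 CPM in SKOV-3 and 0.121 ± 0.082 CPM in T1074. It was higher in PEO-4 (log2 fold change 5.92, adjusted p = 1.08e-08) and in SKOV-3 (2.85, adjusted p = 4.78e-05) than in T1074. The nuclear NMNAT1 was not called in any comparison (9.71 ± 0.4223, 13.3 ± 1.82 and 10.7 ± 4.47 CPM in PEO-4, SKOV-3 and T1074).

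Genes on a list of NAD+ and nicotinamide consumption were mostly lower in PEO-4. Beside enzymes that compete with sirtuins for NAD+ or dispose of nicotinamide, the list held others that do neither, such as NT5E and ACMSD. Of 13 tested, 1 was higher and 10 lower in PEO-4 against T1074 (median -2.02), 3 were higher and 7 lower in SKOV-3 against T1074 (median -0.61), and 2 were higher and 7 lower in PEO-4 against SKOV-3 (median -0.36). The part that was lower, 76.9%, 53.8% and 53.8% in these comparisons, was above that of all genes in each. PARP1, the main poly(ADP-ribose) polymerase, averaged 37.9 ± 1.09 CPM in PEO-4, 73.3 ± 3.27 CPM in SKOV-3 and 168 ± 16.2 CPM in T1074. NNMT, which methylates nicotinamide, averaged 37.7 ± 1.91 CPM in PEO-4, 251 ± 13 CPM in SKOV-3 and 152 ± 37.8 CPM in T1074. CD38, an NAD+ glycohydrolase, was low in all lines, at 0.0469 CPM in PEO-4, 0.0357 CPM in SKOV-3 and 1.76 CPM in T1074.

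Regulators of SIRT1, a list that mixes inhibitors with activators, were called lower more often than higher. Of 14 tested, 2 were higher and 9 lower in PEO-4 against T1074 (median -0.96), 2 higher and 7 lower in SKOV-3 against T1074 (median -0.45), and 3 higher and 7 lower in PEO-4 against SKOV-3 (median -0.22). The part that was lower was 64.3%, 50% and 50%, beside 37.8%, 34.5% and 36.7% of all genes. CCAR2, an inhibitor that binds SIRT1, was not called in any comparison (124 ± 5.52 CPM in PEO-4, 133 ± 2.9 CPM in SKOV-3 and 139 ± 6.22 CPM in T1074). RPS19BP1, an activator, averaged 20.0 ± 0.579 CPM in PEO-4, 45.1 ± 6.83 CPM in SKOV-3 and 42.6 ± 11.3 CPM in T1074. HIC1, a repressor of SIRT1 transcription, averaged 0.395 CPM in PEO-4, 0.752 CPM in SKOV-3 and 33.1 CPM in T1074. HIC1 had a log2 fold change of -6.39 in PEO-4 against T1074 (adjusted p = 7.69e-11), where SIRT1 was not called, and of -5.45 in SKOV-3 against T1074 (adjusted p = 2.44e-10), where SIRT1 was higher.

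Substrate genes moved in both directions. Of 22 tested genes for SIRT1 and SIRT2 substrates, 9 were higher and 11 lower in PEO-4 against T1074 (median -0.43), 13 higher and 7 lower in SKOV-3 against T1074 (median 0.62), and 8 higher and 10 lower in PEO-4 against SKOV-3 (median -0.01). In SKOV-3 against T1074 59.1% were higher, beside 33.3% of all genes. FOXO3 averaged 205 ± 43.8 CPM in PEO-4, 134 ± 1.5 CPM in SKOV-3 and 59.7 ± 1.44 CPM in T1074. Of 24 tested genes for mitochondrial sirtuin substrates, 6 were higher and 9 lower in PEO-4 against T1074 (median -0.06), 9 higher and 9 lower in SKOV-3 against T1074 (median 0.02), and 9 higher and 11 lower in PEO-4 against SKOV-3 (median -0.07). These shares ran over 25% to 37.5% higher and 37.5% to 45.8% lower, near those of all genes in most instances. GLUD1, the glutamate dehydrogenase on which SIRT4 acts, averaged 84.4 ± 6.23 CPM in PEO-4, 159 ± 9.96 CPM in SKOV-3 and 111 ± 21.8 CPM in T1074. CPS1, a urea cycle enzyme deacylated by SIRT5, averaged 41.9 ± 0.986 CPM in PEO-4, 9.1 ± 0.308 CPM in SKOV-3 and 36.8 ± 8.16 CPM in T1074.

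Partners of the nuclear sirtuins and other enzymes of lysine acetylation were called in both directions. Of 19 tested SIRT6 and SIRT7 partners and targets, 8 were higher and 6 lower in PEO-4 against T1074 (median 0.14), 10 higher and 5 lower in SKOV-3 against T1074 (median 0.49), and 6 higher and 9 lower in PEO-4 against SKOV-3 (median -0.18). The share that was higher in SKOV-3 than in T1074 was 52.6%, beside 33.3% of all genes. Of the 11 zinc-dependent histone deacetylases, which do not use NAD+, 4 were higher and 3 lower in PEO-4 against T1074 (median 0.13), 5 higher and 3 lower in SKOV-3 against T1074 (median 0.22), and 2 higher and 4 lower in PEO-4 against SKOV-3 (median -0.13). HDAC1 (73.5 ± 10.2, 65.9 ± 1.6 and 72.8 ± 7.71 CPM in PEO-4, SKOV-3 and T1074) and HDAC6, which shares alpha-tubulin with SIRT2 as a substrate (27.0 ± 3.71, 29.5 ± 1.8 and 30.5 ± 5.22 CPM), were not called in any comparison. Of 14 lysine acetyltransferases, 7 were higher and 4 lower in PEO-4 against T1074 (median 0.27), 3 higher and 3 lower in SKOV-3 against T1074 (median 0.16), and 6 higher and 5 lower in PEO-4 against SKOV-3 (median 0.00). With lists this short, 1 gene moves a share by several points.

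The protein-coding genes within 500 kb of SIRT6 and SIRT7 largely moved with them in PEO-4. Among all tested genes 36.3% were higher and 37.8% lower in PEO-4 against T1074. The shares were 33.3% and 34.5% in SKOV-3 against T1074, and 38.5% and 36.7% in PEO-4 against SKOV-3. Around SIRT7, 34 of 40 tested genes were higher and 2 lower in PEO-4 against T1074, with a median log2 fold change of 1.19 beside 1.48 for SIRT7 and -0.01 for all genes. In SKOV-3 against T1074, 22 were higher and 5 lower there, with a median of 0.45 beside 0.75 for SIRT7. Around SIRT6, 20 of 26 tested genes were lower and 2 higher in PEO-4 against T1074, with a median of -1.36 beside -1.46 for SIRT6, and 22 were lower and 3 higher in PEO-4 against SKOV-3, with a median of -1.41 beside -1.84. Between SKOV-3 and T1074, 12 of the genes around SIRT6 were higher in SKOV-3 and 7 lower, with a median of 0.46. Copy number was not measured, and the part of any regional difference in the sirtuin values was not tested.

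**Figure D5:**
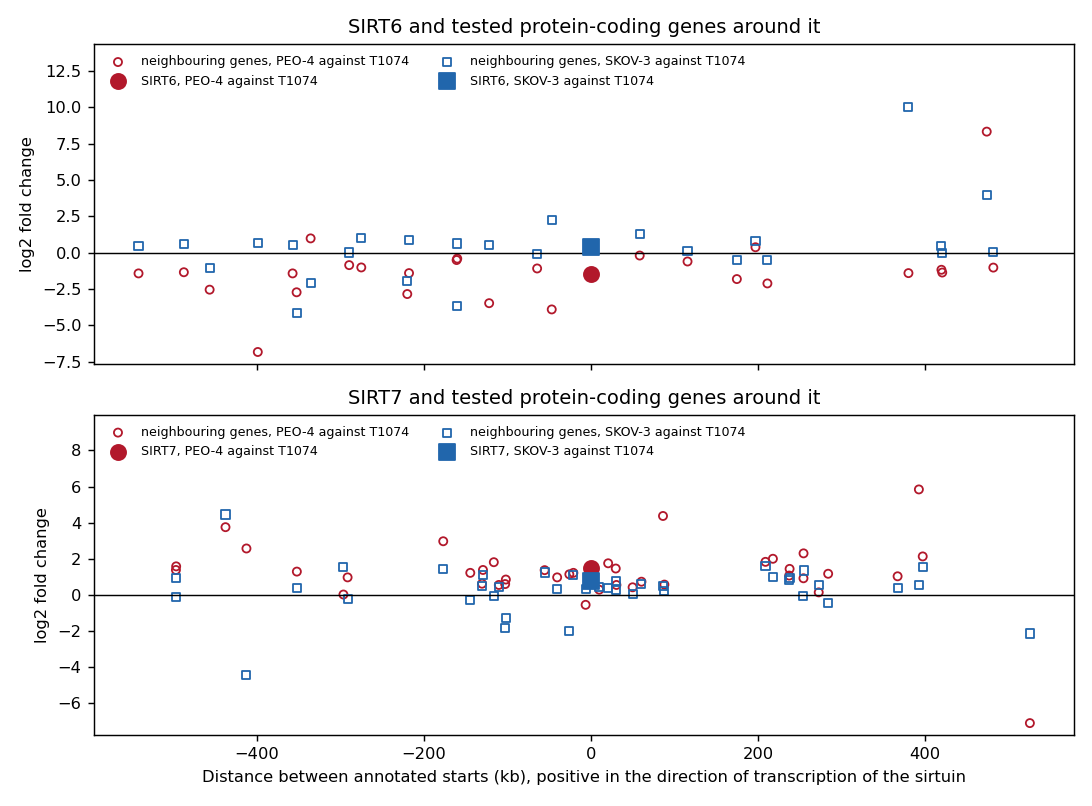
Log2 fold change (y axis) of SIRT6 and SIRT7 (large filled symbols) and of the tested protein-coding genes around each (open symbols) against the distance between annotated starts in kb (x axis), for PEO-4 against T1074 (circles) and SKOV-3 against T1074 (squares). The median of the neighbours in PEO-4 against T1074 is -1.36 around SIRT6 and 1.19 around SIRT7.

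In PEO-4 against T1074 the counts around the other members were smaller or ran the other way. Of all tested genes 36.3% were higher and 37.8% lower in that comparison, and the counts around SIRT3 lay near these shares. Around SIRT5, 0 of 7 tested genes were higher and 5 were lower in PEO-4 against T1074 (median -1.17), although SIRT5 was higher, and all 7 lay below SIRT5. Around SIRT2, 11 of 24 were higher and 6 lower in PEO-4 against T1074 (median 0.32), although SIRT2 was lower, and only 2 lay below it. Around SIRT3, 8 of 24 were higher and 10 lower (median -0.04), and around SIRT4, 5 of 19 were higher and 5 lower (median -0.19) in the same comparison. Around SIRT1, 1 of 8 was higher and 5 were lower (median -0.75), and in SKOV-3 against T1074 3 were higher and 1 lower (median 0.41). In PEO-4 against SKOV-3, 0 of 8 genes around SIRT1 were higher and 4 lower (median -0.88 beside -0.96 for SIRT1). There 0 of 7 around SIRT5 were higher and 5 lower (median -0.59 beside -0.36 for SIRT5). The medians around SIRT2, SIRT3 and SIRT4 were 0.23, -0.13 and 0.09, beside -1.30, -1.67 and -0.35 for the members.

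For each sirtuin the protein-coding genes with the most similar pattern were found among 11210 genes of at least 5 CPM on average, by the root mean square difference of centred log2 CPM over the 12 libraries. The closest genes to SIRT1 were RAB21 (0.129) and SAMD4B (0.159). SIRT2 was closest to S100PBP (0.075), GLT8D1 (0.090) and PTPN3 (0.096), all of which were lower in PEO-4 than in both other lines by mean CPM. SIRT3 was closest to KAT14 (0.145), WASHC3 (0.156) and MTMR2 (0.157), and SIRT4 to ZNF232 (0.127), THAP7 (0.137) and ZCCHC10 (0.138). SIRT5 was closest to UBE2F (0.126), TIMMDC1 (0.130) and PCBD1 (0.138). SIRT6 was closest to FZR1 (0.113), TOLLIP (0.124) and SELENOO (0.135). SIRT7 was closest to NFYA (0.109), MRPS7 (0.123) and TRMT1 (0.128), and NFYA averaged 48.25 CPM in PEO-4, 30.0 CPM in SKOV-3 and 17.6 CPM in T1074, against 46.85, 28.3 and 16.8 CPM for SIRT7. With only 3 lines, many genes share a pattern, and the likeness is a description.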

How the data were processed

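RNA of 12 libraries, 4 each of PEO-4, SKOV-3 and T1074, was used. The authors trimmed reads with Trimmomatic 0.39 after bcl2fastq 2.20.0.422, aligned them with STAR 2.7.3a and counted them with RSEM 1.3.1 on hg38 with GENCODE 39. The expected counts that the authors deposited are estimated fragments per transcript, not normalized. The other deposited column used was the effective length of each transcript. The deposited TPM was not used here.

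Expected counts were summed by gene and rounded. Of the gene IDs, 61369 of 61533 matched GENCODE 44, from which symbols, types and coordinates came. Levels were tested with edgeR 4.0.16 (quasi-likelihood, TMM, filterByExpr, 1 fit over all 12 libraries; R 4.3.3), adjusted over 19898 genes or 76043 transcripts. DESeq2 1.42.0 was an alternative. Usage was tested with diffSpliceDGE, and coding shares with limma 3.58.1. The tests were checked on simulated data of PEO-4 against T1074 with 200 changed transcripts. There diffSpliceDGE recovered 39% of them and 52.4% of its calls were outside the changed genes. Limma on transcript shares (73% recovered, 6.03% outside) was therefore added after the data were seen, and usage is called changed only where both called it. The changed transcripts were drawn from the more abundant ones, shares were of CPM, and no reads were divided between similar transcripts. These rates therefore need not hold for the scarce sirtuin transcripts. Replicates differed by more than counting noise (chi-square per degree of freedom 23.2 to 299.8 over 18 pairs).

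The members, gene lists, markers and tests were chosen with earlier results of these data known. Named were the 7 genes, transcripts of at least 10% of their gene in 1 line, the 3 most similar genes of each, nearest or overlapping genes and chosen list genes. SOD2, on that list, was not analysed here. A similar gene of SIRT1 and a substrate gene that these rules name are not reported here. Alternatives were other scalings, filters, thresholds, tools, a replicate block and leaving out each library. Promoter windows came from RefSeq (GRCh38.p14), which matched 6 of the 7 genes. Protein and mass spectrometry data were not used here.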

Additional observations from a re-analysis of the deposited data

Results flagged for a closer look

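Among 87 groups of 4 libraries that were checked for a library far from the other 3, 5 had one, and chance alone gives about 1 in 20. The second T1074 library had the highest SIRT3 level, 15.3 CPM, against 8.57 to 9.55 CPM in the other T1074 libraries. The third T1074 library had the highest SIRT7 level, 20.7 CPM, against 14.97 to 15.85 CPM in the others. The fourth T1074 library had the lowest SIRT4 coding share, 89.4%, and the lowest share of SIRT4-201, 76.6%, where the others were at 100%. With the others all equal, any lower value would have been flagged, whatever its size. Both flags rest on the same 33 expected counts of SIRT4. The third PEO-4 library had the lowest share of SIRT7-209, a retained-intron form of SIRT7, at 11.4% against 12.4% to 12.7% in the others. Their part in the results was not tested beyond leaving out each library.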

How the results depend on the processing

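Of the 7 sirtuins, the called differences kept their direction and their side of the threshold in every fit that left out 1 library, except SIRT6 in SKOV-3 against T1074 and SIRT5 in PEO-4 against SKOV-3. Uncalled differences changed sign: SIRT1 in PEO-4 against T1074 ranged over -0.27 to 0.04 with single libraries left out, and SIRT2 in SKOV-3 against T1074 over -0.12 to 0.01, and at 0.03 with no filter beyond 1 count. Asking also for a log2 fold change of at least 1 left 2 sirtuins called in SKOV-3 against T1074 and 3 in PEO-4 against SKOV-3. Scaling by library size only moved the median of all genes by -0.16 in PEO-4 against T1074 and by -0.2 in SKOV-3 against T1074, where 4 sirtuins were then higher and 1 lower.

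Transcript usage depended most on the tool. In PEO-4 against T1074, diffSpliceDGE called 1 to 3 sirtuin transcripts with single libraries left out, and limma on shares called 6. In SKOV-3 against T1074 the same fits gave 0 to 1, voom with diffSplice 4 and limma on shares 7. In PEO-4 against SKOV-3 they gave 1 to 2, voom with diffSplice 10 and limma on shares 11. Limma on shares was chosen after seeing the data. The number of sirtuins called for coding share ranged over 0 to 1 in PEO-4 against T1074, 0 to 2 in SKOV-3 against T1074 and 0 to 1 in PEO-4 against SKOV-3 with single libraries left out. It was 0 in both comparisons with T1074 when NMD-annotated transcripts counted as coding, where the SIRT5 difference turned to 0.061 in PEO-4 and 0.104 in SKOV-3 on the arcsine scale, and 0 in SKOV-3 against T1074 on shares of expected counts. The causes were not tested.

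Same-numbered libraries of different lines did not deviate together (12 correlations, -0.0792 to 0.0692), and the best match had the same number in 4 of 24 instances, so the numbers do not pair the libraries. With the replicate number as a block, diffSpliceDGE called 1 sirtuin transcript in PEO-4 against T1074 and 2 in PEO-4 against SKOV-3, and 0 sirtuins were called for coding share in both comparisons with T1074. The block also ended calls by limma on shares against T1074. They were SIRT1-201 in PEO-4 (adjusted p = 0.0641) and SKOV-3 (0.0503), SIRT1-203 in SKOV-3 (0.097), SIRT5-203 in PEO-4 (0.0695) and SIRT5-206 in SKOV-3 (0.0824). The edgeR call of the SIRT1-203 level in SKOV-3 against T1074 was lost as well (adjusted p = 0.107). Depth limits SIRT4, with 17 to 75 expected counts per library.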
